A study of Schmidtea mediterranea with 24 samples.

Results

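Sorted mmp-1+ cells of tail fragments, taken 48 h after amputation, were compared with mmp-1+ cells of intact worms of the planarian flatworm Schmidtea mediterranea. The comparison rested on 6 libraries, 3 per group, chosen by their labels from the 24 samples of the series, of which 18 are sorted-cell libraries. The cells were labelled wild type, and the animals of the sorted libraries had been starved for 11 days. Each library came from a pool of 100 worms that had been dissociated in a fixing buffer and stained for mmp-1 RNA by hybridization chain reaction, and 1000 cells were sorted by flow cytometry. The 12 other sorted libraries, mmp-1- cells of intact worms and of 6 h and 48 h fragments and mmp-1+ cells of 6 h fragments, were used here to place the changes. The intact libraries are whole animals and the 48 h libraries are tails alone. Injury, time after injury and the absence of the rest of the body therefore cannot be told apart in a difference between 48 h and intact, nor in one between 6 h and intact. Fewer cells of one kind within the gate and less RNA per cell cannot be told apart either.

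Matrix metalloproteinases, the enzyme family to which mmp-1 belongs, cut proteins of the extracellular matrix, and are known in many animals for remodelling tissue during wound repair. Planarians rebuild missing parts from neoblasts, dividing stem cells that lie in the tissue between the gut and the body wall. After a cut, wound genes are switched on within hours, and over the following days new tissue forms at the wound while the old tissue is reshaped to the smaller body. Here mmp-1 served as the label by which cells were sorted. The deposited counts are listed by transcript identifiers (SMED30 numbers) that the files do not pair with gene names. Neither mmp-1 itself nor markers of neoblasts, muscle, gut, epidermis or neurons could be read from them, and the transcripts below carry no named role.

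Gene counts were between 54364466 and 66114382 per library over the 6 libraries. By correlation, replicates resembled each other more than the groups did. Pearson's r of log2 (CPM + 1) across transcripts, which are not independent replicates, was 0.994 to 0.996 over the 6 pairs within groups and 0.980 to 0.984 over the 9 pairs between them (CPM: read counts brought to a common library size, here with TMM scaling). As a check of the sort, the 545 transcripts that were at least 2-fold higher in mmp-1+ than in mmp-1- cells at 6 h were summed. They took 16.4%, 8.95% and 17.1% of the counts in the intact mmp-1+ libraries and 11.9%, 16.3% and 13.0% in the 48 h mmp-1+ libraries, against 1.16% to 2.13% in the 6 mmp-1- libraries of the same times. Replicate 2 of the intact mmp-1+ group thus stood apart with the lowest share.

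At 48 h, large decreases outnumbered large increases. Of 31435 transcripts tested with edgeR's quasi-likelihood test, 2240 were called higher (7.13%) and 3325 lower (10.6%) at a Benjamini-Hochberg adjusted p under 0.05. Decreases made up 59.7% of all calls but 73.8% of the calls of at least 2-fold, with 370 transcripts called higher by 2-fold or more (1.18%) and 1042 lower by as much (3.31%). Beyond 4-fold there were 86 increases and 384 decreases, and beyond 16-fold 20 increases and 124 decreases. Most calls were smaller than that. The median log2 fold change was 0.53 among transcripts called higher and -0.69 among those called lower, and 2560 of the 5565 calls (46.0%) were below 1.5-fold. The median over all transcripts was -0.01, and its sign changed with the scaling. All 3 libraries of one group lay above all 3 of the other for 5436 of the 5565 called transcripts. Over all transcripts tested, 16.5% lay higher and 19.2% lower at 48 h without overlap.

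**Figure D1:**
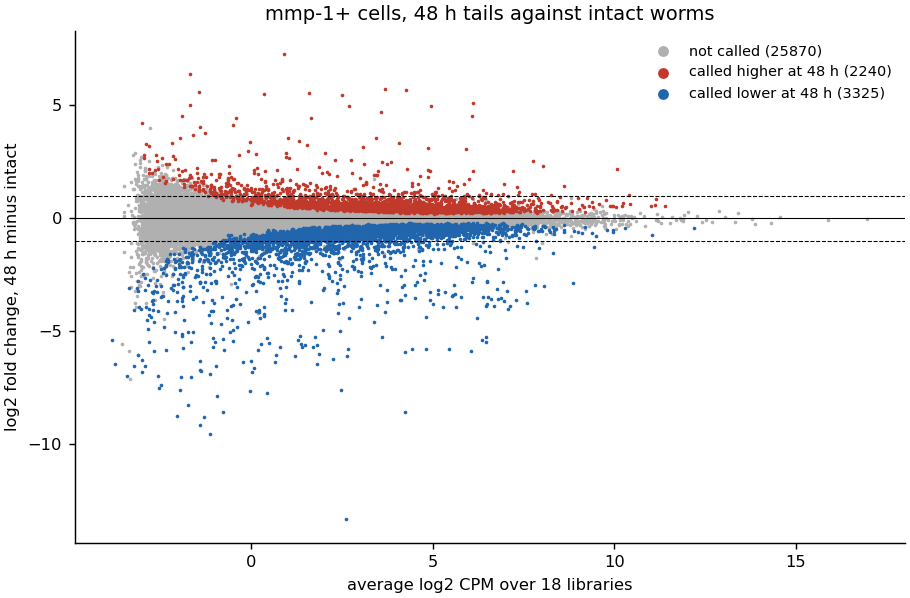
Log2 fold change of each transcript in mmp-1+ cells, 48 h minus intact, against its average log2 CPM over 18 libraries. Red points (2240) were called higher and blue points (3325) lower at an adjusted p under 0.05, grey points were not called, and dashed lines mark 2-fold. The cloud reaches further down than up, with 124 decreases and 20 increases beyond 16-fold.

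The balance of increases and decreases changed with transcript level. Among 11413 transcripts with a mean of 1 to 10 CPM over the 18 libraries, 6.20% were called higher and 12.5% lower. Among 8507 transcripts of 10 to 100 CPM the shares were 13.7% and 15.8%. Among the 1133 of 100 to 1000 CPM, 14.8% were called higher and 11.2% lower, and among the 69 of at least 1000 CPM, 10 were called higher (14.5%) and 3 lower (4.35%). Decreases of at least 2-fold were called for 386 of 10313 transcripts below 1 CPM, 471 of 11413 between 1 and 10 CPM, 160 of 8507 between 10 and 100 CPM, 25 of 1133 between 100 and 1000 CPM and 0 of 69 above. The 10313 transcripts below 1 CPM were measured with the least precision, with a median SE of 0.43 on the log2 scale against 0.10 at 10 to 100 CPM, and 1.80% and 4.07% of them were called higher and lower. (Each SE is the absolute log2 fold change divided by the square root of the F statistic, and so is derived from the test.)

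**Figure D2:**
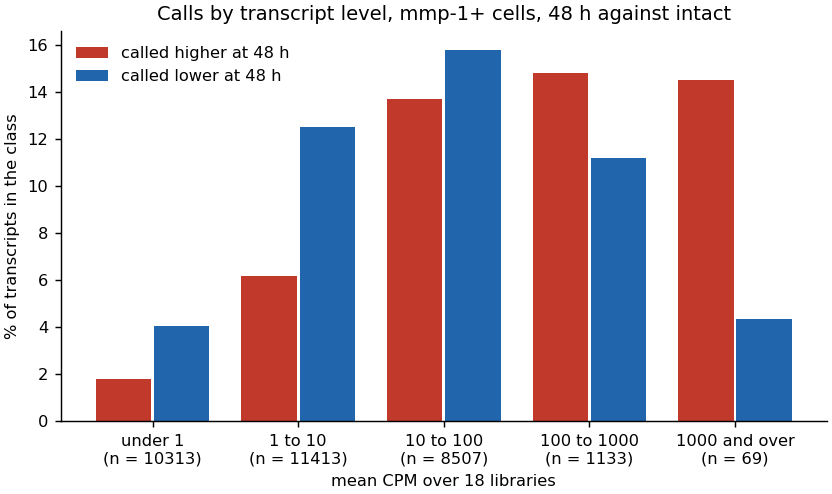
Share of transcripts called higher (red) or lower (blue) at 48 h in mmp-1+ cells, in % of each class of mean CPM over 18 libraries, with the number of transcripts per class. Lower calls exceed higher calls below 100 CPM, and higher calls exceed lower ones from 100 CPM upward.

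The transcripts named were chosen by rule for the largest change in CPM and, separately, for the largest fold change. SMED30005835 had the largest increase in CPM among transcripts called at least 2-fold. It stood at 354, 386 and 372 CPM in the intact libraries and at 1809, 1941 and 1285 CPM at 48 h. All 48 h libraries lay far above all intact ones, with replicate 3 the lowest of them. The change from 371 ± 15.8 to 1678 ± 347 CPM (SD, n = 3 each) was a log2 fold change of 2.18 with SE 0.16 (edgeR adjusted p 1.35e-08). SMED30003809 came next, with 766, 920 and 861 CPM in intact worms and 1812, 1638 and 1751 CPM at 48 h. Its groups were tight and well apart, at a log2 fold change of 1.03 with SE 0.11 (edgeR adjusted p 1.18e-06). The 6 h libraries of mmp-1+ cells lay between the groups for both transcripts, at 905 to 1153 CPM for SMED30005835 and 1251 to 1537 CPM for SMED30003809.

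Of the decreases, SMED30025808 lost the most CPM. It had 1278, 1068 and 1157 CPM in intact worms and 492, 401 and 553 CPM at 48 h, a log2 fold change of -1.28 with SE 0.27 (edgeR adjusted p 0.00194). The 6 h libraries, at 480 to 513 CPM, were already in the range of the 48 h libraries. In mmp-1- cells the transcript varied widely, from 463 to 1207 CPM in intact worms and from 308 to 691 CPM at 48 h, and its change there was not called (-0.59, SE 0.26, edgeR adjusted p 0.139). The difference between the populations was not called either (interaction -0.69, SE 0.37, edgeR adjusted p 0.999). SMED30018686 had 691, 583 and 491 CPM in intact worms and 124, 95.9 and 24.1 CPM at 48 h. The log2 fold change came to -2.86 with SE 0.44 (edgeR adjusted p 1.16e-04), and the 48 h libraries differed among themselves by more than the intact ones, with replicate 3 the lowest. Unlike SMED30025808 it showed no decrease at 6 h, when it stood at 396 to 824 CPM.

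By fold, SMED30028552 and SMED30003676 led the increases among transcripts with an average log2 CPM of 4 or more over the 18 libraries; larger fold changes occurred below that level. SMED30028552 was close to absent from intact mmp-1+ cells, at 0.818, 1.06 and 0.542 CPM, and reached 28.4, 64.4 and 32.0 CPM at 48 h (log2 fold change 5.66, SE 0.36, edgeR adjusted p 3.31e-09). SMED30003676 went from 4.28, 5.70 and 2.79 CPM to 107, 213 and 115 CPM (5.08, SE 0.34, edgeR adjusted p 4.83e-09). Replicate 2 was the highest 48 h library for both transcripts, and every 48 h library lay far above every intact one. Intermediate levels were again present at 6 h, at 7.78 to 11.9 CPM for SMED30028552 and 30.2 to 54.6 CPM for SMED30003676.

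The 2 largest fold decreases at or above the same level followed different courses, and larger ones again occurred below it. SMED30029471 had 39.1, 55.5 and 42.0 CPM in intact mmp-1+ cells and was down to 0.813 to 1.15 CPM by 6 h. At 48 h it had 0, 1.97 and 0.380 CPM, a log2 fold change of -5.94 against intact (SE 0.93, edgeR adjusted p 1.30e-04) that was -7.95 without replicate 2 and -5.30 without replicate 1 of the 48 h group. SMED30024356 instead was still present at 6 h, with 14.7 to 40.3 CPM against 25.7, 50.2 and 42.5 CPM in intact worms. At 48 h the 3 libraries held 5, 10 and 1 counts, or 0.0862, 0.209 and 0.0190 CPM. The log2 fold change came to -8.58 with SE 1.49 (edgeR adjusted p 3.84e-04) and moved to -9.45 when 48 h replicate 2 was left out, but limma with voom did not call it (adjusted p 0.248).

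**Figure D3:**
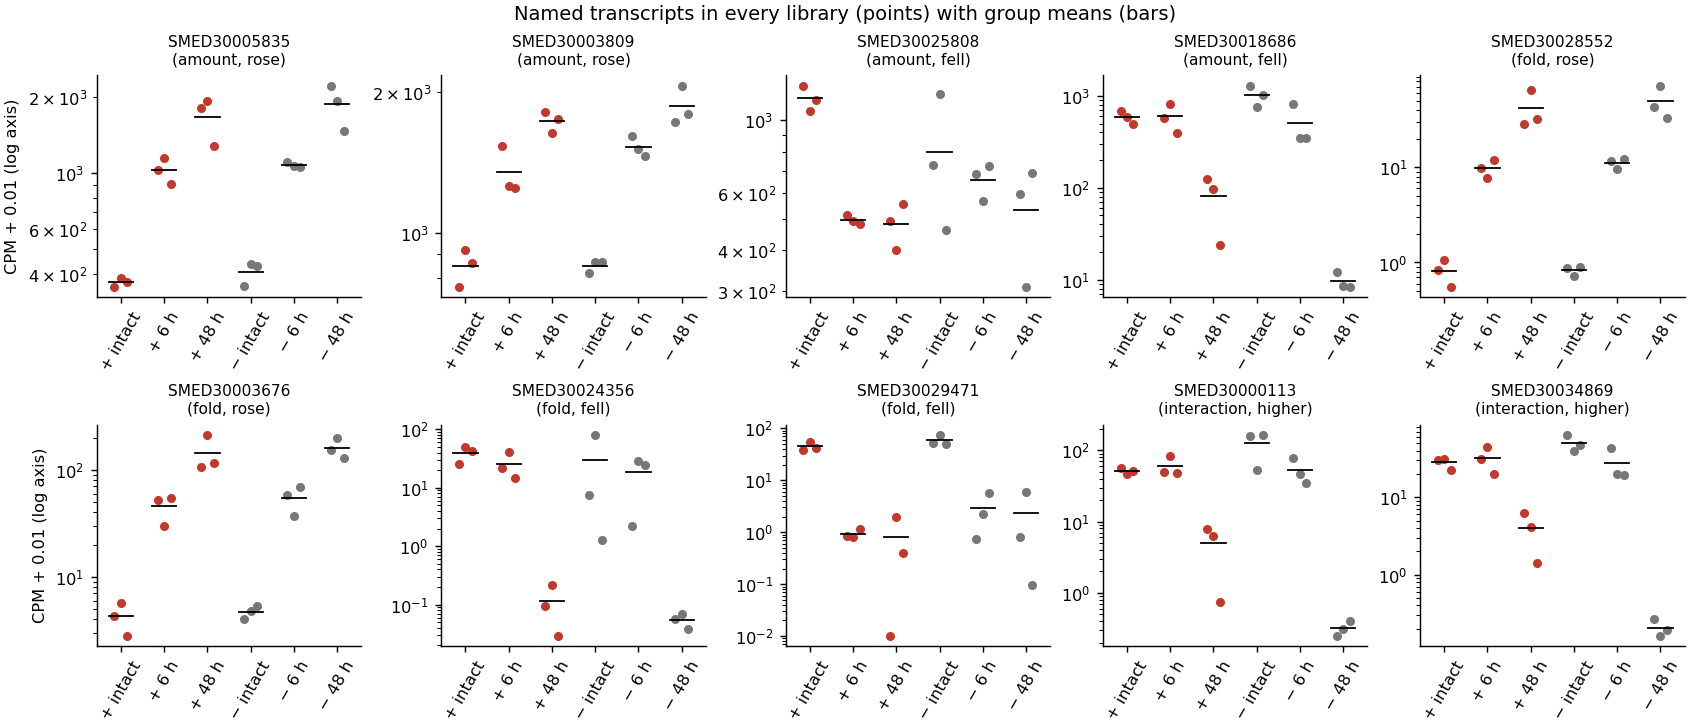
CPM of each named transcript (plus 0.01, on a log axis) in every mmp-1+ library (red) and mmp-1- library (grey), from intact worms and at 6 h and 48 h; bars are group means of 3 libraries. SMED30029471 is low from 6 h on, whereas SMED30018686, SMED30024356, SMED30000113 and SMED30034869 are low at 48 h but not at 6 h in mmp-1+ cells.

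A few transcripts were near silent in 1 of the 2 groups. A total of 11 had at least 1 CPM in every intact mmp-1+ library and under 0.1 CPM in every 48 h library, and 3 showed the opposite. Leaving out 48 h replicate 2 raised the first count to 31, and leaving out intact replicate 3 raised the second to 5. These limits used the compared libraries, so the calls of these transcripts in the same comparison are no separate result. The 11 were low already at 6 h in mmp-1+ cells, with at most 0.587 CPM in any library. In mmp-1- cells 10 of the 11 were called lower at 48 h against intact, where 9.85% of all transcripts were. SMED30002331 was the most abundant of the 11 and was chosen after its values were seen. It had 21.6 ± 3.12 CPM in intact mmp-1+ cells (SD, n = 3) and 0 counts in all 3 libraries at 48 h, which makes it at least 1139-fold lower against a floor of 3 counts over the group (0.0189 CPM). The 3 transcripts near silent in intact worms, also named after their values were seen, were SMED30016051, SMED30018053 and SMED30029247. SMED30029247 was the highest of them, with 0, 0.0152 and 0.0581 CPM in intact worms and 3.14, 6.94 and 1.69 CPM at 48 h, and its mmp-1- libraries lay at 0.0272 to 0.103 CPM in intact worms and 2.04 to 7.89 CPM at 48 h. SMED30016051 reached 1.00, 1.15 and 1.25 CPM in 48 h mmp-1+ cells and 0.0474 to 0.105 CPM in 48 h mmp-1- cells. SMED30018053 reached 1.03, 1.90 and 1.25 CPM in mmp-1+ and 0.0900 to 0.331 CPM in mmp-1- cells. Of these 3, 2 were called higher at 48 h in mmp-1- cells, where 7.74% of all transcripts were. The difference between the populations in this change (interaction) was called for 0 of the 3, against 0.175% of all transcripts.

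The transcripts that moved at least 2-fold were a small part of the RNA, and other libraries showed how their share ran over time. The 370 transcripts called at least 2-fold higher took 0.378%, 0.419% and 0.374% of the counts in intact mmp-1+ libraries and 1.11%, 1.15% and 1.13% at 48 h. These libraries chose the transcripts, so the direction is given as a description. In the 6 h mmp-1+ libraries, which were not used to choose them, the share was 0.596%, 0.700% and 0.615%. Its place between the intact and 48 h mmp-1+ shares is likewise a description, since those libraries made the choice. Among mmp-1- libraries the intact share of 0.478% ± 0.0288 was followed by 0.862% ± 0.0475 at 6 h and 1.24% ± 0.0311 at 48 h (SD, n = 3 each), with no overlap between times. The 1042 transcripts called at least 2-fold lower took 1.64%, 1.74% and 1.44% of the counts in intact mmp-1+ libraries and 0.424%, 0.412% and 0.425% at 48 h. Their share was 1.12%, 1.32% and 1.03% in the 6 h mmp-1+ libraries, below every intact library. The intact libraries had chosen these transcripts, so this order too is given as a description. Among mmp-1- libraries the intact share of 1.96% ± 0.203 was followed by 1.38% ± 0.148 at 6 h and 0.520% ± 0.0185 at 48 h (SD, n = 3 each). In mmp-1- libraries the summed share fell more from 6 h to 48 h than from intact to 6 h. Such a sum is weighted by abundant transcripts, and the median per transcript in mmp-1- cells had the other order, with a log2 fold change of -0.88 from intact to 6 h and -0.40 from 6 h to 48 h.

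**Figure D4:**
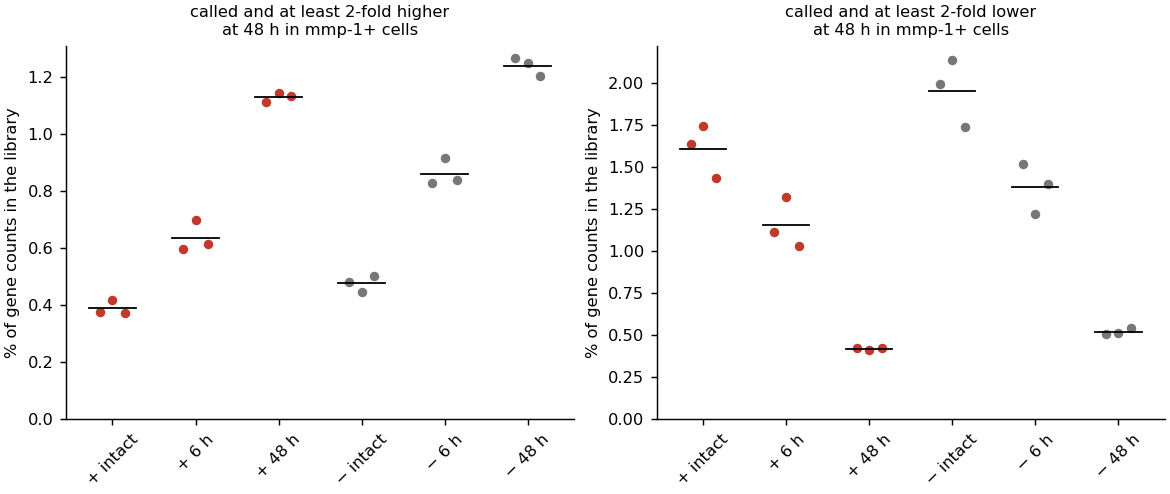
Share of all gene counts, in %, that each library gave to the transcripts called at least 2-fold higher (left) or lower (right) at 48 h in mmp-1+ cells; points are libraries (red mmp-1+, grey mmp-1-) and bars are means of 3. The intact and 48 h mmp-1+ points fixed the choice of transcripts, so the place of the 6 h mmp-1+ points between them is a description. The mmp-1- libraries, which took no part in the choice, show the same order of times, with 6 h between intact and 48 h.

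The same transcripts were then read in mmp-1- cells, which share no library with the comparison. Whether they came from the same worms is not stated in the labels. Of the 370 that were at least 2-fold higher, 238 were also called higher at 48 h against intact in mmp-1- cells (64.3%, against 7.74% of all transcripts) and 0 were called lower. Their median log2 fold change there was 1.06. Of the 1042 that were at least 2-fold lower, 817 were called lower (78.4%, against 9.85%) and 0 higher, with a median of -1.40. The 2-fold lists themselves (in mmp-1- cells 1.17% of all transcripts higher and 3.19% lower) overlapped in 191 increased transcripts, which are 51.6% of the mmp-1+ and 51.8% of the mmp-1- list, and in 690 decreased ones, 66.2% and 68.8% of these lists. At 6 h against intact in mmp-1- cells, 112 of the 370 were called higher (30.3%, against 4.56% of all transcripts) and 516 of the 1042 lower (49.5%, against 4.99%). Between 6 h and 48 h in mmp-1- cells, 149 of the 370 were called higher (40.3%, against 4.58%) and 257 of the 1042 lower (24.7%, against 5.18%).

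The converse reading started from lists made in mmp-1- cells alone and asked what each did in mmp-1+ cells at 48 h against intact. Of 309 transcripts that rose at least 2-fold by 6 h in mmp-1- cells (0.983% of all transcripts), 118 were called higher in mmp-1+ cells at 48 h (38.2%, against 7.13% of all transcripts) and 9 lower (2.91%, against 10.6%). Their median log2 fold change was 0.55. Of 638 transcripts that fell at least 2-fold by 6 h (2.03%), 452 were called lower (70.8%, against 10.6%) and 7 higher (1.10%, against 7.13%), with a median of -1.46. Of 280 transcripts at least 2-fold higher at 48 h than at 6 h in mmp-1- cells (0.891%), 124 were called higher (44.3%, against 7.13%) and 13 lower (4.64%, against 10.6%), with a median of 0.76. Of 358 at least 2-fold lower over that interval (1.14%), 226 were called lower (63.1%, against 10.6%) and 11 higher (3.07%, against 7.13%), with a median of -1.17. The small counts moved with single libraries. Each such fit rebuilt the lists and called 4001 to 4565 of all transcripts, in place of 5565. The part of this in the small counts was not tested. The 9 became 4 when 48 h replicate 1 was left out, and the 7 became 4 when 48 h replicate 3 or intact replicate 3 was. The 11 became 7 when 48 h replicate 2, intact replicate 1 or intact replicate 2 was left out, and 6 when intact replicate 3 was.

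**Figure D5:**
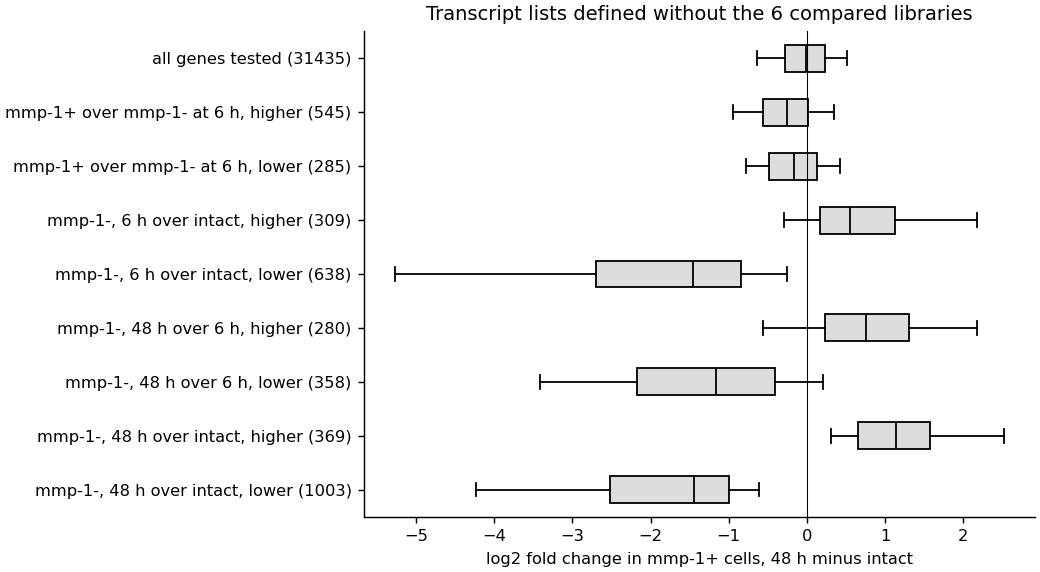
Log2 fold change in mmp-1+ cells, 48 h minus intact, for all transcripts tested and for lists defined in libraries outside the comparison, with the number of transcripts in brackets. Boxes span the quartiles, lines inside are medians and whiskers reach the 10th and 90th percentiles; the decreasing mmp-1- lists have medians of -1.17 to -1.46 and the increasing ones of 0.55 to 1.14.

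For the transcripts that mark the sorted population, the count called lower depended on single libraries. Of the 545 that were at least 2-fold higher in mmp-1+ than in mmp-1- cells at 6 h (1.73% of all), 122 were called lower at 48 h against intact (22.4%, against 10.6% of all) and 35 higher (6.42%, against 7.13%). The median was -0.26, with an SD of 0.22 between the 48 h replicates. It was -0.16, -0.15 and -0.13 when 48 h replicate 1, intact replicate 1 or intact replicate 3 was left out, -0.39 when 48 h replicate 2 was and -0.45 when intact replicate 2 was. The number called higher was 23 when 48 h replicate 2 was left out. For the number called lower, leaving out 48 h replicate 1 gave 68, leaving out intact replicates 1 and 3 gave 70 and 69, and leaving out intact replicate 2 gave 212, the last being the library with the lowest share of these transcripts. It was 76 under total-count scaling. The part of intact replicate 2 in the result was not tested beyond this. Each of these settings rebuilt the list. Over all transcripts, 3325 were called lower with all libraries and 2421 to 2725 without single ones. For calls higher the counts were 2240 and 1556 to 1885. The part of this general change in the counts of the list was not tested. Of the 285 transcripts called lower in mmp-1+ than in mmp-1- cells at 6 h (0.907% of all), 98 were called lower at 48 h (34.4%, against 10.6% of all). A further 39 were called higher (13.7%, against 7.13%), and the median was -0.17. Under total-count scaling the list was rebuilt and held many more transcripts, of which 1432 were called lower and 1311 higher. Over all transcripts that setting called 2782 lower and 1969 higher. The median of the rebuilt list was 0.04. With TMM, the number called lower was 61 and 54 without replicates 1 and 2 of the intact group. The number called higher was 22 and 18 without replicates 1 and 3 of the 48 h group, and 15 and 20 without replicates 1 and 3 of the intact group.

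Whether a 48 h change differed between the populations was tested by the interaction in the same edgeR fit. It called 55 of 31435 transcripts (0.175%), all with a more positive change in mmp-1+ cells. An unadjusted p under 0.05 was found for 1322, which is less than a share of 0.05 of those tested. That count is therefore no sign of further differences. Leaving out mmp-1+ 48 h replicate 2 gave 35. Leaving out mmp-1+ intact replicate 2 gave 57, of which 11 had a less positive change, and leaving out mmp-1- intact replicate 2 gave 52, of which 6 did. The 2 transcripts named for the largest interaction were chosen from those called, so their calls are no separate result. Both fell in both populations, and further in mmp-1- cells. SMED30000113 had 56.3, 47.1 and 51.7 CPM in intact mmp-1+ cells and 7.95, 6.27 and 0.721 CPM at 48 h, whereas in mmp-1- cells it went from 52.3 to 166 CPM to 0.237 to 0.394 CPM. SMED30034869 had 30.3, 31.7 and 22.8 CPM and then 6.24, 4.16 and 1.40 CPM in mmp-1+ cells, against 39.7 to 64.6 CPM and then 0.150 to 0.253 CPM in mmp-1- cells. The 48 h groups did not overlap between the populations, and replicate 3 was again the lowest mmp-1+ library. The interactions were 5.26 (SE 0.84, edgeR adjusted p 0.00551) and 5.18 (SE 0.69, edgeR adjusted p 0.00159), and limma with voom called neither (adjusted p 0.874 and 0.309). SMED30018686, described above, differed in the same way at 3.87 (SE 0.61, edgeR adjusted p 0.00474), with mmp-1- levels of 754 to 1295 CPM in intact worms and 8.32 to 12.2 CPM after 48 h. For the 4 named increases the interaction was not called, and each was called higher in mmp-1- cells too. SMED30028552 rose there by 5.92 (SE 0.36), SMED30003676 by 5.08 (SE 0.33), SMED30005835 by 2.21 (SE 0.16) and SMED30003809 by 1.13 (SE 0.11), with edgeR adjusted p of 2.08e-09, 4.72e-09, 1.16e-08 and 3.79e-07.

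Within mmp-1+ cells, 3027 transcripts were called between 48 h and 6 h (9.63%), 1432 higher (4.56%) and 1595 lower (5.07%), a comparison that shares its 48 h libraries with the one described here. The count was 1870 and 1969 without replicates 1 and 3 of the 48 h group and 1993 without replicate 3 of the 6 h group. Under total-count scaling 76.2% of the calls were higher, in place of 47.3%. SMED30018686 fell by 2.88 (SE 0.44, edgeR adjusted p 2.32e-04) over this interval and SMED30024356 by 7.95 (edgeR adjusted p 0.00164). SMED30029471 (-0.33, SE 1.12) and SMED30025808 (-0.04, SE 0.26) were not called, with edgeR adjusted p of 0.912 and 0.959. The 4 named increases rose further between 6 h and 48 h, by 0.36 (SE 0.10, edgeR adjusted p 0.0322) for SMED30003809 up to 2.08 (SE 0.28, edgeR adjusted p 7.22e-05) for SMED30028552.

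Tissue sections, from worms fed weekly before amputation, gave a readout that shares no library with the sorted cells. Slide-seqV2 captures the RNA of a section on barcoded beads, and 2 adjacent sections were taken from 1 frozen block per time point, each block holding 8 to 9 tail fragments around 1 intact animal. The sections have no biological replicate, contain the intact animal, and allow 48 h to be set beside 6 h only. The 6 h sections held 10863941 and 13792997 UMIs (unique molecular identifiers) and the 48 h sections 21234845 and 18695274. Both 48 h sections were thus deeper than both 6 h sections, and the part of this in the shares below was not tested. The 4 sections shared 3 to 5 bead barcodes pairwise. Among the 370 transcripts at least 2-fold higher in 48 h mmp-1+ cells, 111 had at least 200 UMIs over the 4 sections, and 80 of these (72.1%) were higher in both 48 h sections than in both 6 h sections, where 52% of all such transcripts were. Among the 1042 at least 2-fold lower, 291 had enough UMIs, and 144 of these (49.5%) were lower in both 48 h sections, where 14.8% of all were.

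All named decreases but SMED30025808 were lower in both 48 h sections than in both 6 h sections. SMED30024356 had 19.6 CPM (here UMIs brought to a common section total, 95% Poisson interval 17.1 to 22.4) and 22.8 CPM (20.3 to 25.4) in the 6 h sections and 1.27 CPM (0.838 to 1.85) and 2.03 CPM (1.44 to 2.79) in the 48 h sections. SMED30018686 had 651 and 711 CPM at 6 h and 109 and 268 CPM at 48 h, and SMED30034869 had 112 and 140 CPM and then at most 42.8 CPM. SMED30000113 had 28.7 and 18.6 CPM at 6 h and 3.30 and 5.19 CPM at 48 h. SMED30029471 was scarce throughout, with 33 and 26 UMIs at 6 h and 0 and 2 UMIs at 48 h; the 95% Poisson upper limit for the count of 0 is 0.174 CPM in that section. SMED30025808 had 364 and 178 CPM at 6 h and 189 and 126 CPM at 48 h, so that its sections overlapped. The increases were mixed. SMED30003676 was higher at 48 h, with 29.4 CPM (27.2 to 31.8) and 29.6 CPM (27.2 to 32.2) against 10.2 CPM (8.41 to 12.3) and 9.28 CPM (7.74 to 11.0). SMED30005835 was also higher in both 48 h sections, at 21.6 CPM (19.7 to 23.7) and 21.0 CPM (19.0 to 23.2) against 16.7 CPM (14.3 to 19.3) and 19.0 CPM (16.8 to 21.4). Its intervals overlapped between the times. SMED30028552 was lower at 48 h, at 9.32 CPM (8.07 to 10.7) and 13.4 CPM (11.8 to 15.2). Its intervals at 6 h were 13.7 to 18.6 CPM and 24.0 to 29.5 CPM, the lower of which overlapped the higher 48 h interval. SMED30003809 was lower too, at 3422 and 3606 CPM against 4344 and 4008 CPM. For these 2 transcripts the sections went the other way from the sorted mmp-1+ cells, in which 48 h exceeded 6 h. These intervals and limits cover counting error only.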

How the data were processed

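For the sorted cells the authors deposited raw read counts per transcript identifier, without normalization, in 1 table of 36035 identifiers. The submitters' processing notes name STAR 2.7.3a and RSEM; the build, the annotation and how reads were counted are not stated in the labels or headers. Libraries were made without strand information or molecular identifiers, with 10 and 12 PCR cycles per the labels' protocols, so reads are not independent molecules and those of overlapping or antisense transcripts cannot be told apart. In the 6 compared libraries 13.2% to 14.1% of reads were unmapped and 7.37% to 8.73% multimapping, as listed in the table. These rows stayed out of library sizes and tests, and levels of near-identical copies are uncertain. The section files hold UMI counts per bead as deposited; they were summed over all beads.

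The fit used edgeR 4.0.16 under R 4.3.3 (limma 3.58.1, DESeq2 1.42.0 as alternatives): filterByExpr, TMM, and a quasi-likelihood fit of 6 group means over 18 libraries, with Benjamini-Hochberg adjustment over all 31435 transcripts kept. The script was tested on simulated data. Of 100 2-fold changes set in transcripts of at least 1 CPM, it called 79 for 48 h against intact and 59 for the interaction. It also called 10 and 9 transcripts in which no change was set. The number of changes set differed from the number called in the data, so these rates need not hold there. The labels call the pools biological replicates. Pairs of libraries within groups differed by a chi-square of 15.6 to 106 per transcript, so each was counted once. Pairs between the compared groups differed by 55.2 to 124, so by this measure the 2 ranges overlapped. Transcripts were named by 3 rules: the 2 largest changes in mean CPM each way among called, at least 2-fold, non-overlapping transcripts; the 2 largest fold changes each way among called, non-overlapping transcripts at or above 4 in average log2 CPM; and the 2 largest interactions each way at that level, of which none was negative. The comparison, lists and rules were chosen with earlier results of these data known.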

Additional observations from a re-analysis of the deposited data

Results flagged for a closer look

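Among the named transcripts, 3 changed by different amounts in the 2 sorted populations between intact worms and 48 h, as tested by the interaction of population and time in edgeR. SMED30000113 and SMED30034869 were named for the largest interactions among those called, so their calls here followed from the choice. SMED30018686 was named for its change in CPM. The interaction was 3.87 for SMED30018686 (SE 0.61, edgeR adjusted p 0.00474), 5.26 for SMED30000113 (SE 0.84, edgeR adjusted p 0.00551) and 5.18 for SMED30034869 (SE 0.69, edgeR adjusted p 0.00159). Limma with voom did not call the latter pair, at adjusted p of 0.874 for SMED30000113 and 0.309 for SMED30034869. All 3 fell in both populations, and every 48 h mmp-1+ library lay above every 48 h mmp-1- library. These libraries also gave the interactions, so their order is no separate result. In the intact libraries the groups did not overlap for SMED30018686 and SMED30034869, with mmp-1+ the lower. SMED30000113 overlapped there, at 47.1 to 56.3 CPM against 52.3 to 166 CPM. At 48 h the mmp-1+ libraries differed among themselves, SMED30018686 by 24.1 to 124 CPM, SMED30000113 by 0.721 to 7.95 CPM and SMED30034869 by 1.40 to 6.24 CPM, with replicate 3 the lowest each time.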

How the results depend on the processing

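The count of called transcripts at 48 h against intact in mmp-1+ cells was 4001 to 6326 over 14 alternatives, with 1556 to 2756 higher and 2421 to 3570 lower, and the 2-fold counts were 268 to 416 and 801 to 1068. No called value changed direction; of 750 values recomputed over 88 results, 628 kept their side or size, 119 moved and 3 lost their call (the limma with voom values given above). For SMED30029471 at 48 h against intact, only 13 of the 14 alternatives gave a value, and the remaining alternative was not counted. Without single libraries the main counts were 4001 to 4565 called. The replicate numbers did not pair the compared groups (r of same-numbered deviations -0.217, -0.194 and 0.0377), and the fit with replicate number as a block called 5568, with 45 for the interaction. At 48 h the same-numbered r between mmp-1+ and mmp-1- libraries was 0.179, 0.0717 and 0.250. Each of these libraries correlated best with its own number. In intact worms the same-numbered r was -0.0151, 0.0803 and 0.130, and mmp-1+ replicate 1 correlated best with mmp-1- replicate 2 (0.0241). The labels do not say whether same-numbered libraries of the 2 populations came from the same worms. A pairing of the populations within each time was not fitted, and its part in the interaction was not tested. Interaction counts were 105 with DESeq2 (99 higher, 6 lower) and 32 with limma and voom (32 higher); 2 were lower under total-count scaling and 1 without the low-count filter. Leaving out single libraries gave 35 to 66 called, 35 to 66 higher and 0 to 11 lower. For 48 h against 6 h, total-count scaling gave 2580 higher and 808 lower, and leaving out single libraries gave 1870 to 2296 called, 893 to 1095 higher and 976 to 1204 lower.

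The median over all transcripts was -0.015 to 0.014, so its sign depended on the setting. The medians of the lists moved by more than the replicate SD as follows, with no change of sign except where stated. The mmp-1- 48 h higher list was 1.17 with RLE, 1.12 with total counts, 1.21 with the stricter filter, 1.11 with voom, 1.16 in the compared groups alone, 0.70 with a 1.5-fold limit, and 1.09 to 1.23 without single libraries. The mmp-1- 48 h lower list was -0.92 with a 1.5-fold limit and -1.51 to -1.39 without single libraries. The mmp-1- 6 h higher list was 0.59 with total counts, 0.60 with the stricter filter, 0.51 with voom, 0.41 with a 1.5-fold limit, and 0.49 to 0.60 without single libraries. The mmp-1- 6 h lower list was -1.38 with DESeq2, -1.40 in the compared groups alone, -0.999 with a 1.5-fold limit, and -1.51 to -1.39 without single libraries. The mmp-1- 48 h against 6 h higher list was 0.85 with the stricter filter, 0.82 in the compared groups alone, 0.63 with a 1.5-fold limit, and 0.74 to 0.82 without single libraries. The mmp-1- 48 h against 6 h lower list was -1.32 with total counts, -1.30 with the stricter filter, -1.11 with voom, -0.65 with a 1.5-fold limit, and -1.24 to -1.13 without single libraries. The list lower in mmp-1+ at 6 h was 0.036 with total counts, a change of sign, -0.089 with the stricter filter, and -0.24 to -0.13 without single libraries. The cause of these shifts was not tested, apart from the list membership that each setting rebuilt. Using beads with at least 50 UMIs alone moved each named section value by less than its counting interval. Precision was lowest below 1 CPM, where the median SE was 0.43; the part of depth in this was not tested. The near-silent counts and 2-fold counts were added after seeing the data.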
